A study of Rattus norvegicus with 5 samples.

Results

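Integrins, laminins, syndecans and glypicans were described across the femoral condylar cartilage (FCC) and the 4 zones of the mandibular condylar cartilage (MCC) of the rat. Members were all genes named Itga, Itgb or Itgbl1, the laminin chains, the nidogens, perlecan (Hspg2), dystroglycan (Dag1), the syndecans and the glypicans, taken from probe sets that carry 1 gene symbol. This gave 46 genes on 75 probe sets, of 14217 named genes on 20826 such probe sets. Probe sets of 1 gene were averaged. Gpc5, Itga10, Itga2, Itga4 and Itgb8 were not analysed here.

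All 5 groups were cartilage of 5-week-old male wild-type Sprague-Dawley rats, with no treatment. Cells were cut by laser from 7 µm frozen sections, the labels give 30 pooled sections a group where the study's methods give more for FZ, and RNA was amplified linearly in 2 cycles before hybridization to an Affymetrix rat genome array. The groups were FCC (chondrocytes from the middle and deep layers of femoral cartilage), the fibrous zone (FZ) and proliferative zone (PZ), here called superficial, and the mature zone (MZ) and hypertrophic zone (HZ), here called deep. Each group had 1 array, so no difference below has a replicate check, a spread or a p-value. The labels and methods write of a single animal in places and of pooled sections throughout, and the zones may share animals.

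Values were on a log2 scale relative to the median of the same probe set over the 5 arrays, so that 0 is that median and not an absent transcript, and 1 unit is a doubling. They hold no expression level, and a gene with flat values may be unexpressed everywhere or expressed equally. Levels could not be compared between genes. A difference of at least 1 between groups is called higher or lower below, with the share of all named genes past the same size as background. The labelled cell type could not be checked by presence for the same reason. Of 8 chondrocyte markers, the array medians were 1.34 in FCC, -1.64 and -0.07 in FZ and PZ, and 0.56 and -0.11 in MZ and HZ.

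Integrins are receptors made of an alpha and a beta chain that join the extracellular matrix to the actin cytoskeleton. Most alpha chains of connective tissue pair with the beta1 chain and bind collagen, fibronectin or laminin, while chains that pair with beta2 or beta7 belong to leukocytes and the pair of Itga2b and Itgb3 to platelets. Laminins are trimers of an alpha, a beta and a gamma chain, and with nidogens and perlecan they build basement membranes and the pericellular matrix of chondrocytes. Syndecans cross the membrane and glypicans are held on it by a lipid anchor, and both carry heparan sulfate chains that bind growth factors.

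The highest and lowest array differed by at least 1 in 24 members (52.2%, against 27.2% of all named genes) and by at least 2 in 8 members (17.4%, against 6.68%). The median of this range was 1.06 over the members and 0.61 over all named genes. In 14 members the range was under 0.5. Of the 24, the lowest array was FCC in 9, PZ in 7, MZ or HZ in 7 and FZ in 1, and the highest was MZ or HZ in 9, FCC in 7, FZ in 6 and PZ in 2. Over all named genes with such a range, 33.6% were lowest in FCC and 34.7% in PZ, and 28% were highest in FCC, 20.3% in FZ and 11% in PZ. The plot of all members by array shows the classes side by side.

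**Figure D1:**
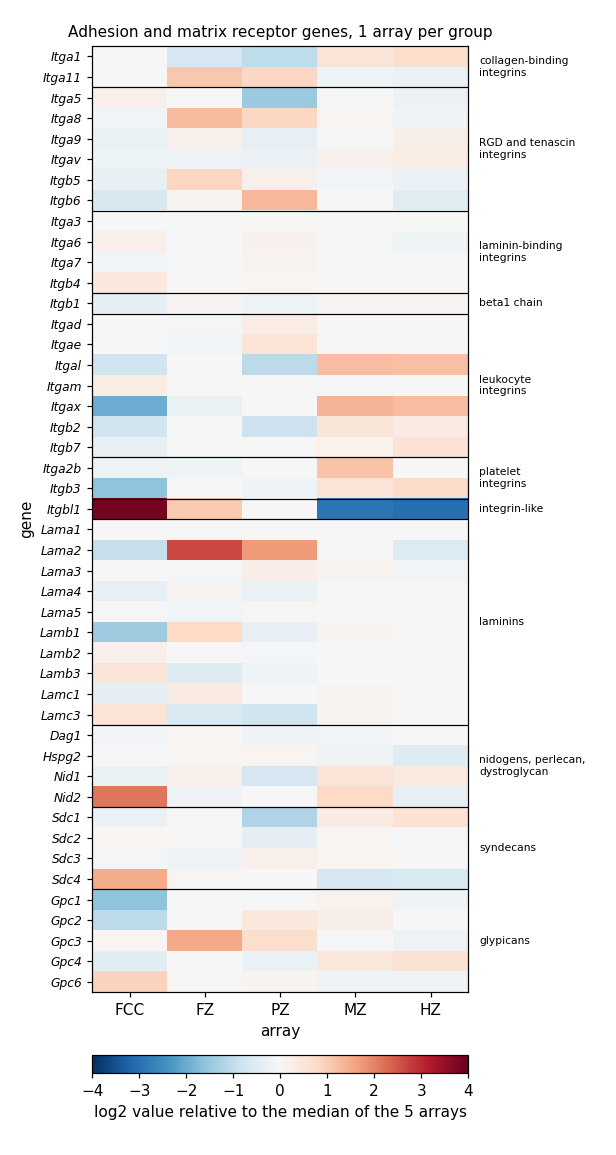
Each row is 1 of the 46 member genes grouped by class, each column is 1 array (FCC, FZ, PZ, MZ, HZ), and colour is the log2 value relative to the median of the 5 arrays. Itgbl1 runs from 3.84 in FCC to -3.00 in HZ, Lama2 is high in FZ and PZ, and Itgax and Itgal are high in MZ and HZ, while the laminin-binding integrins are close to 0 throughout.

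The first comparison was between the 2 cartilages, as the mean of the 4 MCC zones minus FCC. In MCC 7 members were higher (15.2% of members, against 5.13% of all named genes) and 3 were lower (6.52%, against 4.7%). The higher members were Itgax by 2.57, Itgb3 by 1.90, Lama2 by 1.86, Gpc1 by 1.61, Lamb1 by 1.56, Gpc2 by 1.22 and Itgal by 1.14. The lower members had differences of -5.06 (Itgbl1), -2.07 (Nid2) and -1.78 (Sdc4). Each of these higher and lower members was read by 1 probe set, as were 29 of the 46 members, so no second probe set could be compared. Itgal fell short of 1 without MZ (0.85) or HZ (0.86), while Itgb2 (1.07) and Gpc6 (-1.03) passed it without PZ, Lamc3 (-1.004) without MZ and Itgb6 (1.11) without HZ. The median over the members was 0.16, and over all named genes 0.02. In such samples of many cells, fewer cells of a type and less RNA per cell cannot be told apart. Every zone taken alone was at least 1 above FCC for Itgax, Itgb3, Gpc1, Gpc2 and Lamb1, a pattern that 1.83% of all named genes had, and at least 1 under FCC for Itgbl1, Nid2 and Sdc4, which 2.62% had.

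The scale of the arrays touches these differences. The hybridization controls, spiked into the sample at a fixed amount, averaged 0.50 in FCC and 0.44 in PZ, and -0.15, -0.02 and -0.03 in FZ, MZ and HZ. Shifting the arrays to equal controls moved the median of all probe sets from 0.01 to 0.45 in MCC minus FCC, from 0.02 to -0.15 in superficial minus deep, from -0.05 to 0.54 in FZ minus PZ and from 0.03 to -0.33 in PZ minus the other arrays. All differences given are on the deposited scale, relative to a median near 0. The shift was smaller than the size of a call in every comparison, so no called member could change sign under it.

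The second comparison was within MCC, as the mean of FZ and PZ minus the mean of MZ and HZ. In the superficial zones 5 members were higher (10.9%, against 2.24% of all named genes) and 4 were lower (8.7%, against 3.78%). The higher members were Itgbl1 by 3.49, Lama2 by 2.44, Gpc3 by 1.19, Itga11 by 1.18 and Itga8 by 1.08. The lower members had differences of -1.73 (Itgal), -1.45 (Itga1), -1.44 (Itgax) and -1.06 (Sdc1). Gpc3, Itga8 and Sdc1 were read by 2 probe sets each, and the other higher and lower members by 1. In each of these 9 genes, both superficial arrays lay on the same side of both deep arrays. These calls depend in part on single arrays. Without FZ, 4 were higher and 7 lower: Gpc3 (0.78) and Itga8 (0.86) were no longer past 1, Itgb6 (1.56) was, and Itga5 (-1.38), Itgb2 (-1.22) and Nid1 (-1.12) joined the lower members. Without PZ, 6 were higher and 3 lower, since Itgb5 (1.03) passed 1 and Sdc1 (-0.46) did not. Without HZ, Itga8 (0.97) and Sdc1 (-0.93) fell short and Itga2b (-1.25) passed, and without MZ, Itgb6 (1.19) passed. The share of all named genes without an array is not given, so these counts have no background. The median was 0.0029 over the members and -0.0032 over all named genes. MCC minus FCC and superficial minus deep use the same 4 zone arrays.

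**Figure D2:**
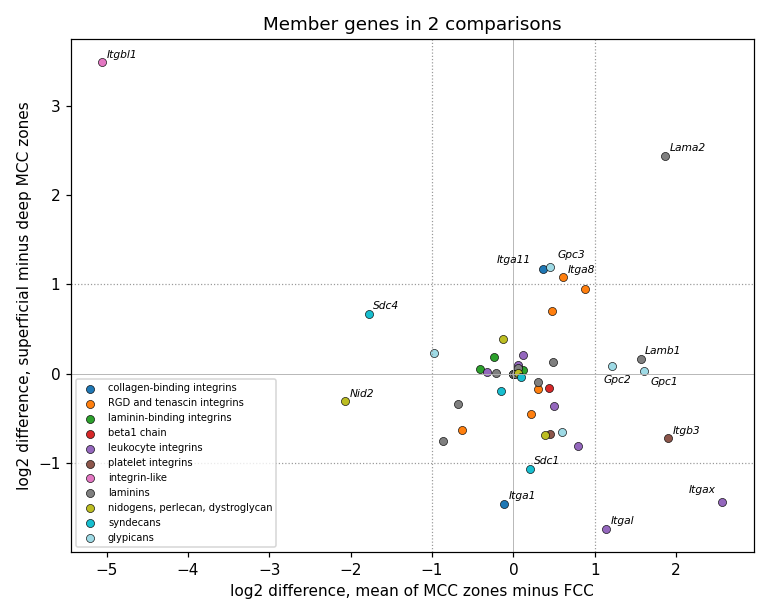
Each point is 1 member gene, coloured by class, with the log2 difference MCC minus FCC on the x axis and superficial minus deep MCC zones on the y axis; dotted lines mark a difference of 1. Itgbl1 stands at -5.06 and 3.49, Lama2 at 1.86 and 2.44, and the leukocyte integrins Itgax and Itgal lie at the lower right.

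Neighbouring zones were compared as well. FZ was higher than PZ in 5 members (10.9%, against 6.1% of all named genes) and lower in 1 (2.17%, against 1.12%). With the arrays shifted to equal hybridization controls these counts were 12 and 0. That shift moved the median of all probe sets in FZ minus PZ from -0.05 to 0.54. The share of all named genes under it is not given, so the 12 has no background. PZ was higher than MZ in 3 members (6.52%, against 280 of 14217 named genes). It was lower in 8 members (17.4%, against 1090 of 14217). With equal controls the median of all probe sets in PZ minus MZ moved from 0.02 to -0.44. MZ was higher than HZ in Itga2b by 1.15 and Nid2 by 1.13 (4.35% of members, against 0.907%), and lower in 0 members (against 0.204%).

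Itgbl1, which encodes a secreted protein of integrin-like repeats without a membrane anchor, had the widest range of the members and the 9th widest of all named genes, 6.84. Its values were 3.84 in FCC, 1.06 and 0.00 in FZ and PZ, and -2.91 and -3.00 in MZ and HZ. They descended from the femoral cartilage through the superficial zones, and the deep zones differed from each other by 0.09. FZ minus PZ was 1.06. Its promoter is shown because it is the member with the widest range. RefSeq sequence of the GRCr8 assembly is given from 250 bases before to 50 after the gene start, plus strand, chr15:107186542-107186841, and capitals mark GAGGAA on either strand, which is the core bound by the myeloid factor PU.1.

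Itgbl1: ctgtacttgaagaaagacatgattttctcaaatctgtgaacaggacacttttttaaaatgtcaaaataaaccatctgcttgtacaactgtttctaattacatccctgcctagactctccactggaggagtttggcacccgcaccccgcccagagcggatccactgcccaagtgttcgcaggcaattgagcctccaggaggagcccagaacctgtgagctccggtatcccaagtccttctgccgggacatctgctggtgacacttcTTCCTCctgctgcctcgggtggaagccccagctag

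This window held 1 match, on the reverse strand, with its first base at position 16 from the start. The 6 letters were found on either strand in 27.6% of the 33469 promoters of the RefSeq table, which belong to 27457 genes. Of the 33 members that table lists, counted with 1 promoter each, 16 had a match (48.5%), so these shares have unlike units. A match is only a match of letters.

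The collagen-binding alpha chains went opposite ways within MCC. Itga1, the main receptor for type IV collagen among them, had values of 0.00 in FCC, -0.68 and -1.005 in FZ and PZ, and 0.52 and 0.69 in MZ and HZ. Itga11, a receptor for fibrillar collagen on fibroblasts, had values of 0.00 in FCC, 1.08 and 0.83 in FZ and PZ, and -0.17 and -0.28 in MZ and HZ. Itga1 was thus low and Itga11 high in both superficial zones, with FCC between them and the deep zones for Itga1 and near the deep zones for Itga11. Their partner Itgb1, the beta1 chain shared by most integrins here, had values of -0.40 in FCC, 0.10 and -0.19 in FZ and PZ, and 0.11 and 0.12 in MZ and HZ, a range under 1.

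Of the 6 chains that bind fibronectin, other RGD proteins or tenascin, Itgb6, the beta chain of an integrin known from epithelia that activates TGF-beta, had the widest range. Its values were -0.64 in FCC, 0.10 and 1.31 in FZ and PZ, and 0.00 and -0.49 in MZ and HZ, so that PZ alone was high. PZ exceeded the mean of the other 4 arrays by 1.57, the most of any member. Itga5, the fibronectin receptor chain, had values of 0.20 in FCC, 0.02 and -1.49 in FZ and PZ, and 0.00 and -0.22 in MZ and HZ, and was low in PZ alone. Itga8, a receptor for nephronectin and fibronectin, was 1.25 in FZ and 0.81 in PZ and between -0.16 and 0.07 in the other arrays, but its probe sets disagreed. One had a superficial minus deep difference of 2.12 and the other of 0.04. Itgb5, a partner of Itgav, had its highest value in FZ, 0.86, but 1 of its 3 probe sets was highest in PZ (0.53, against 0.43 in FZ). In FZ minus PZ its probe sets ran from -0.10 to 1.25. Itgav, the alpha chain of several RGD receptors, and Itga9, which binds tenascin, had ranges under 1.

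The laminin-binding integrins differed least. Itgb4, the beta chain of hemidesmosomes, led them with values of 0.43 in FCC, 0.00 and 0.09 in FZ and PZ, and 0.00 and -0.03 in MZ and HZ. Itga3, Itga6 and Itga7 had smaller ranges, and Itga3 was 0.00 in all 5 arrays, a tie on its 1 probe set. Values of exactly 0 were common, from 6508 of 31042 probe sets in PZ to 12261 in MZ. What gave such ties was not tested. In superficial minus deep the 4 genes lay between 0.00 and 0.19, and in MCC minus FCC between -0.41 and 0.12.

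Among the laminin chains Lama2, the alpha chain of the laminin of muscle, nerve and mesenchymal tissue, stood out. Its values were -0.92 in FCC, 2.63 and 1.69 in FZ and PZ, and 0.00 and -0.55 in MZ and HZ. Both superficial zones were above the other 3 arrays, and FZ exceeded FCC by 3.56. Lamb1, a beta chain found in most laminin trimers, had values of -1.42 in FCC, 0.79 and -0.34 in FZ and PZ, and 0.11 and 0.00 in MZ and HZ, so that FCC was lowest and FZ highest. Lamc1, the gamma chain that would join them in a trimer, was between -0.38 in FCC and 0.33 in FZ. Lama1, Lama3, Lama4, Lama5 and Lamb2, chains of embryonic, epithelial, vascular and synaptic laminins, had ranges under 0.5. Lamc3 and Lamb3 were highest in FCC, at 0.54 and 0.51. Over the 10 laminin genes the median was 0.04 in MCC minus FCC and 0.00 in superficial minus deep.

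Nid2, a linker of laminin to type IV collagen, had values of 2.15 in FCC, -0.15 and 0.00 in FZ and PZ, and 0.80 and -0.33 in MZ and HZ, with FCC above all zones and MZ above the other zones. Its paralog Nid1 was between -0.67 in PZ and 0.52 in MZ, with probe sets that disagreed on superficial minus deep, -1.43 and 0.06. Perlecan (Hspg2), the large heparan sulfate proteoglycan around chondrocytes, was lowest in HZ at -0.52 and between -0.13 and 0.08 elsewhere. Dystroglycan (Dag1), a laminin receptor, had gene means between -0.14 and 0.06, while its 4 probe sets spanned -0.33 to 1.21 in FZ minus PZ.

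**Figure D3:**
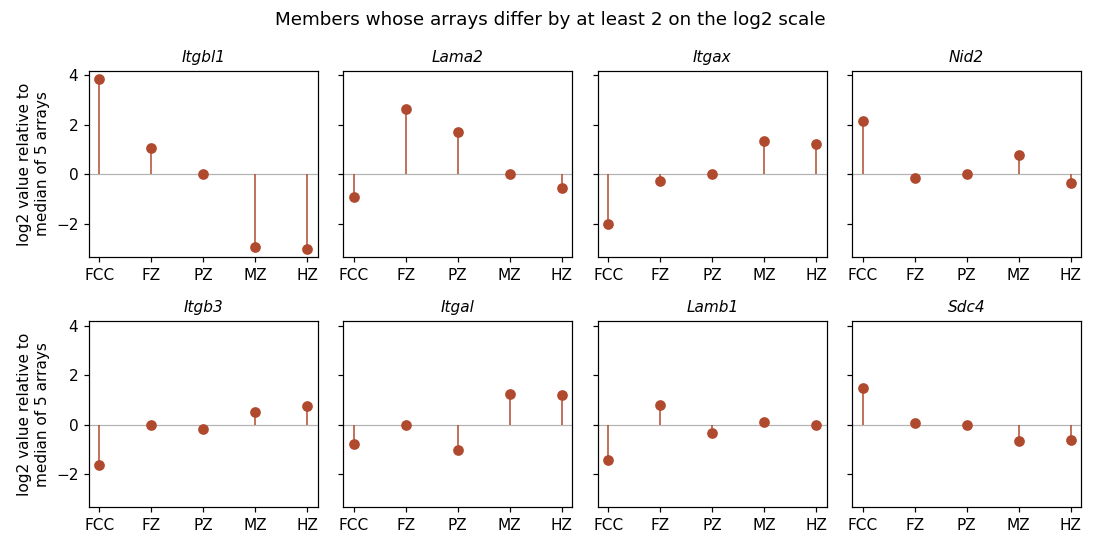
Each panel is 1 of the 8 members whose highest and lowest array differ by at least 2, with the array on the x axis and the log2 value relative to the median of the 5 arrays on the y axis; every point is 1 array. FCC is the highest array for Itgbl1, Nid2 and Sdc4 and the lowest for Lama2, Itgax, Itgb3 and Lamb1.

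Among the syndecans, Sdc4, which sits in focal adhesions, had values of 1.48 in FCC, 0.08 and 0.00 in FZ and PZ, and -0.67 and -0.61 in MZ and HZ. FCC was highest, with the superficial zones above the deep ones by 0.67. Sdc1, best known from epithelia and plasma cells, had values of -0.27 in FCC, 0.00 and -1.21 in FZ and PZ, and 0.33 and 0.59 in MZ and HZ, so that PZ was lowest. Its probe sets had superficial minus deep differences of -1.16 and -0.96. Sdc2 and Sdc3 had ranges under 0.5.

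Of the glypicans Gpc1, a widely expressed member, had values of -1.62 in FCC, 0.00 and 0.00 in FZ and PZ, and 0.13 and -0.18 in MZ and HZ. Gpc2, known from the developing nervous system, had values of -1.06 in FCC, 0.00 and 0.41 in FZ and PZ, and 0.23 and 0.00 in MZ and HZ. Both were low in FCC and close together over the 4 zones. Gpc3, a regulator of hedgehog signalling whose loss causes overgrowth, was 1.52 in FZ and 0.70 in PZ and near 0 elsewhere. Its probe sets disagreed, since one had values of 3.09 in FZ and 1.401 in PZ and the other -0.04 and 0.00. Gpc4 was highest in HZ at 0.57 and lowest in FCC at -0.41. Gpc6 was highest in FCC at 0.94, and its 4 probe sets ranged from -2.24 to -0.02 in MCC minus FCC. Superficial minus deep spanned at least 1 between the probe sets of 3 of the 17 members that have 2 or more, Gpc3 (2.45 and -0.06), Itga8 and Nid1.

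**Figure D4:**
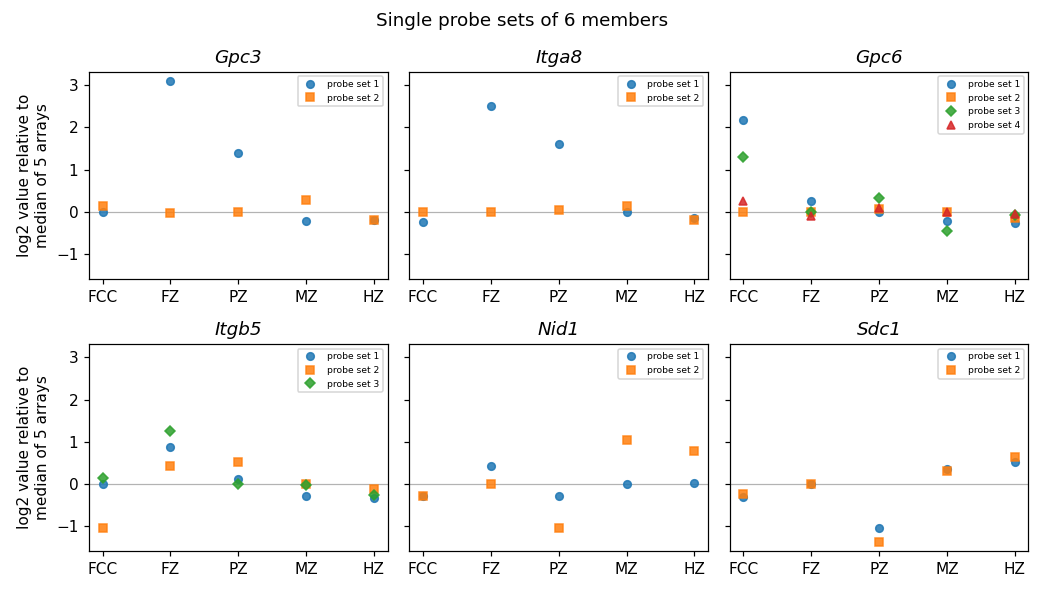
Each panel is 1 member with 2 or more probe sets (Gpc3, Itga8, Gpc6, Itgb5, Nid1 and Sdc1), with the array on the x axis, the log2 value relative to the median of the 5 arrays on the y axis and 1 colour and marker for each probe set. In Gpc3 and Itga8 only probe set 1 is high in FZ and PZ, and in Sdc1 both probe sets are lowest in PZ.

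The leukocyte and platelet integrins were kept apart from those of cartilage. Of these 9 genes, 3 were higher in MCC than in FCC (against 5.13% of all named genes) and 0 lower (against 4.7%), with a median of 0.50. In the superficial zones 0 were higher (against 2.24%) and 2 lower (against 3.78%), with a median of -0.67. The other 14 integrin genes, Itgbl1 included, had 0 higher and 1 lower in MCC with a median of 0.17, a share near the same background. They had 3 higher and 1 lower in the superficial zones with a median of 0.05, beside the same 2.24% and 3.78%. Whether these medians differ was not tested.

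Itgax, the alpha chain CD11c of dendritic cells and macrophages, had values of -1.99 in FCC, -0.28 and 0.00 in FZ and PZ, and 1.35 and 1.24 in MZ and HZ. Itgal, the alpha chain of LFA-1 on lymphocytes and myeloid cells, had values of -0.80 in FCC, 0.00 and -1.04 in FZ and PZ, and 1.22 and 1.20 in MZ and HZ. Both deep zones were the highest arrays for either gene. Their shared partner Itgb2 had values of -0.80 in FCC, 0.00 and -0.82 in FZ and PZ, and 0.49 and 0.32 in MZ and HZ, in the same direction. Itgam, CD11b of neutrophils and monocytes, was 0.31 in FCC and between -0.04 and 0.00 in the zones, and Itgad, Itgae and Itgb7 had ranges under 1. Superficial minus deep was 0.02 for Itgam, 0.10 for Itgad and 0.21 for Itgae, unlike Itgax and Itgal.

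The promoters of Itgax and Itgam are shown because these are genes of the same chromosome and strand with the same beta2 partner, one of which had a wide range and the other a narrow one. Both are RefSeq sequence of GRCr8, plus strand, from chr1:192149799-192150098 for Itgax and chr1:192089342-192089641 for Itgam, with GAGGAA on either strand in capitals.

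Itgax: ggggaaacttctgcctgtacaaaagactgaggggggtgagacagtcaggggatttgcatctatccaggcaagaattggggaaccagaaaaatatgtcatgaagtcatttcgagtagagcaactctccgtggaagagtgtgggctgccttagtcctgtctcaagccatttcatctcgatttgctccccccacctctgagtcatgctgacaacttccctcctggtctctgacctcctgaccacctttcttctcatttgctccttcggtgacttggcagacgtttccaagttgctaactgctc

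Itgam: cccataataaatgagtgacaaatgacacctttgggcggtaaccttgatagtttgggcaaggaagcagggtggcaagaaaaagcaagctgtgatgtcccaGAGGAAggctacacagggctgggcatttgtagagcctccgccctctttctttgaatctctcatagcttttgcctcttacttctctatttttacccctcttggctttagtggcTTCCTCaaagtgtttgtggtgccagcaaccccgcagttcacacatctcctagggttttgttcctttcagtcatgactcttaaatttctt

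The Itgam window held 2 matches, with first bases at -151 and -39 from the gene start, and the Itgax window held 0. Of the 4 leukocyte integrins listed in the table, 2 had a match (Itgam and Itgae). Itgal and Itgb2 are named only.

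Itgb3, which pairs with Itga2b on platelets and with Itgav on osteoclasts and other cells, had values of -1.62 in FCC, 0.00 and -0.16 in FZ and PZ, and 0.50 and 0.77 in MZ and HZ. FCC was lowest by more than 1. Itga2b, restricted to megakaryocytes and platelets, had values of -0.20 in FCC, -0.18 and 0.00 in FZ and PZ, and 1.15 and 0.00 in MZ and HZ. MZ alone was high.

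Some markers of blood cells moved with Itgax, Itgal and Itga2b. Of 13 pan-leukocyte markers, 8 were higher in MCC than in FCC and 8 were lower in the superficial than in the deep zones, with 0 the other way in either comparison. Their mean was -0.92 in FCC, -0.15 and -0.78 in FZ and PZ, and 0.68 and 1.03 in MZ and HZ. Ptprc, the leukocyte antigen CD45, was -0.87 in superficial minus deep. Of 9 megakaryocyte and platelet markers, 6 were lower in the superficial zones, and 5 were higher in MZ than in HZ with a median of 1.16, beside the 1.15 of Itga2b. Their mean was -0.14 in FCC, -0.30 and -0.33 in FZ and PZ, and 1.53 and 0.69 in MZ and HZ. In superficial minus deep, 4 of 4 neutrophil markers (median -2.38), 5 of 7 erythroid markers (median -1.79), 4 of 10 endothelial markers (median -0.74) and 2 of 4 osteoclast markers (median -1.05) were also lower. In MCC minus FCC 3 of those 4 osteoclast markers and 2 of the 9 megakaryocyte and platelet markers were higher, and 0 of the 4 neutrophil (median -0.09) and 0 of the 7 erythroid markers (median 0.03) were. Of 9 smooth muscle and pericyte markers 2 were higher and 0 lower in the superficial zones, of 5 Schwann cell markers 1 was higher and 0 lower, of 6 osteoblast markers 0 were higher and 2 lower, and of 6 skeletal muscle markers 0 passed 1. The part of these cells in the integrin values was not tested.

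**Figure D5:**
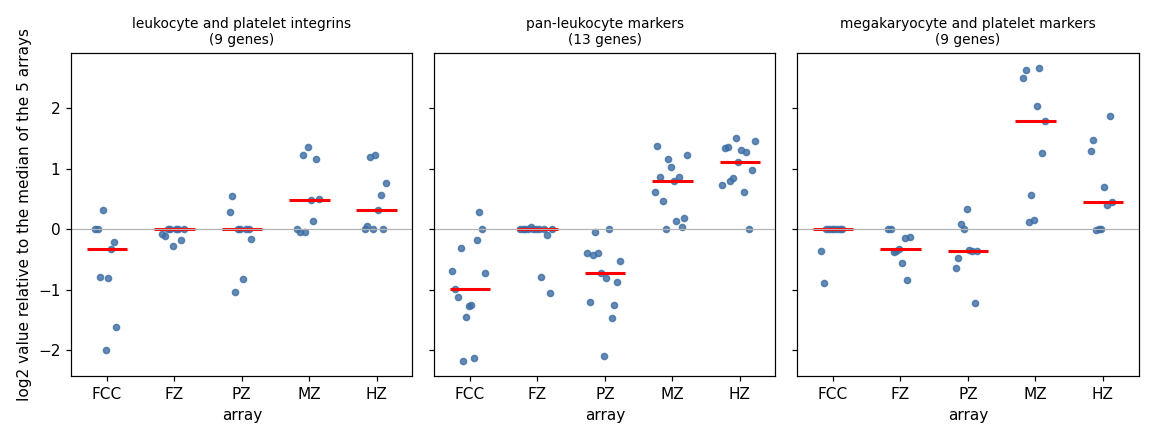
Each point is 1 gene in 1 array, with the log2 value relative to the median of the 5 arrays on the y axis, for the 9 leukocyte and platelet integrins, 13 pan-leukocyte markers and 9 megakaryocyte and platelet markers; red lines are medians over genes. The integrin medians are -0.32 in FCC, 0.00 in FZ and PZ, 0.49 in MZ and 0.32 in HZ, and the megakaryocyte markers have their highest median, 1.80, in MZ.

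The genes around the receptors were taken from lists. Of 21 adaptors that link integrins to actin, 0 were higher or lower in superficial minus deep (median 0.01), and the widest were Pxn and Parvb, each at -0.66. In MCC minus FCC, Actn4, an actin crosslinker, was 1.52 and Lims2, a partner of integrin-linked kinase, was -2.67, and the median was 0.32. Of 12 partners of leukocyte and platelet integrins, 6 were lower in the superficial zones (median -0.91), among them Fermt3, the kindlin of blood cells, at -1.59 (-1.05 without PZ), and 3 were higher in MCC than in FCC (median 0.75). Of those 12, Coro1a and Tyrobp are also among the pan-leukocyte markers.

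Of 16 secreted ligands of the integrins, 4 were higher and 2 lower in the superficial zones (median 0.19). Tgfbi, a matrix protein that binds collagen and integrins, was 2.02 and osteopontin (Spp1), a ligand of Itgav and Itgb3, was -2.14, which was -1.05 without PZ and -3.23 without FZ. In MCC minus FCC, 2 were higher and 6 lower (median -0.82), with Chad, the cartilage leucine-rich protein that binds collagen and integrin, at -5.96 and Comp, a pentameric cartilage protein, at -2.77. Of 16 other basement membrane genes, 2 were higher and 2 lower in the superficial zones (median -0.05), with Col15a1 at 1.61 and the type IV collagen chain Col4a2 at -1.32. The Col15a1 difference was 2.52 without PZ and 0.70 without FZ. Col4a2 was low in PZ alone, at -3.09, and without PZ its difference turned to 0.47. In MCC minus FCC 0 were higher and 2 lower (median -0.12), with Smoc1 at -4.02 and Col15a1 at -1.68. Of 10 genes of the dystroglycan complex, Sspn was higher in the superficial zones by 1.08 (0.98 without HZ, median 0.22) and 0 passed 1 in MCC minus FCC. Of 6 syndecan partners 0 passed 1 in either comparison.

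Of the 24 members with a range of at least 1, PZ was the lowest array in 7. Over all named genes with such a range PZ was lowest in 34.7%, so this was not particular to the members. Against the mean of the other 4 arrays, Itga5 was -1.49, Itgal -1.44, Sdc1 -1.37 and Itga1 -1.14. These are 4 of 46 members (8.7%), where 5.54% of all named genes were so much lower. With equal hybridization controls 7 members were so much lower. That shift moved the median of all probe sets in this comparison from 0.03 to -0.33, and the share of all named genes under it is not given. Itgb6 and Lama2 were higher by 1.57 and 1.403, where 1.31% of all named genes were. FZ exceeded PZ in Itga5 by 1.51, Sdc1 by 1.21, Lamb1 by 1.13, Itgbl1 by 1.06 and Itgal by 1.04, and Itgb6 was -1.22. Beside these values stand those of RNA quality. On the same relative scale, the 5' minus 3' difference of the Gapdh control probe sets was 1.36 in PZ and between -0.21 and 0.27 in the other arrays, and that of the actin control was 1.24 in FCC and between -0.24 and 0.14 in the others. Their part in the results was not tested.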

How the data were processed

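RNA of laser-captured cartilage was measured on 5 Affymetrix rat genome arrays, 1 per group (FCC, FZ, PZ, MZ, HZ), so precision is limited by their number. The authors deposited log2 values from GeneSpring GX version 12, after RMA, quantile normalization and subtraction of each probe set's own median over the 5 arrays, and MAS5 is named for background correction. No genome build was stated. All 31099 probe sets have a median of 0. Of these, 57 were controls, 20826 had 1 gene symbol, 436 several and 9780 none listed. Probe sets were averaged per gene, giving 14217 genes. Comparisons were differences of log2 values, counted at a size of 1, with Python 3.11.15, pandas 2.3.3 and numpy 2.4.6. The alternatives were 2 other scalings, sizes of 1.4 and 2, other probe set choices, and leaving out 1 zone. The comparison of PZ with the mean of the other arrays, and leaving out a zone for the listed genes, were added after seeing the data. Members, classes, pathway and marker lists were chosen with earlier results of these data known. The 5 values were given for members with a range of at least 2 and the leading member of each class, and for others after their values were seen.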

Additional observations from a re-analysis of the deposited data

How the results depend on the processing

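No member named as higher or lower changed sign under both other scalings or with its most variable probe set. The same held without the _s_at, _x_at and _a_at probe sets. These alternatives left little room for a change of sign. Every array had a median of 0, so centring moved nothing, and the shift to equal controls was smaller than the size of a call. Of the members named with no array left out, only Gpc3, Itga8 and Sdc1 had 2 probe sets. The most variable probe set could differ from the gene's value in these alone. None of the members so named was read by an _s_at, _x_at or _a_at probe set. The less variable probe set of Gpc3 was at -0.06 in superficial minus deep. No paired analysis was possible because each group has 1 array. Each group carries the replicate number 1, and the zones may share animals. Among values that answer a comparison, 34 moved under an alternative and 130 did not. The 130 include values that could not move, such as all those after centring on the median, so they do not measure stability. For arrays shifted to equal hybridization controls the share of all named genes is not given, so counts of members under that shift have no background. The same holds for a size of 1.4, other probe set choices and leaving out 1 zone. At a size of 2, 56 of 14217 named genes were higher in MCC minus FCC. In superficial minus deep 93 were higher and 39 lower, and in FZ minus PZ 82 and 21. In MZ minus HZ 34 were higher, and in PZ minus the others 24 were higher and 57 lower. Counts of higher members in MCC minus FCC were 7, and became 11 with arrays shifted to equal hybridization controls and 1 at a size of 2; leaving out 1 zone gave 6 to 8 higher and 3 to 4 lower. In superficial minus deep the 5 higher members became 2 at a size of 1.4 and 2 at a size of 2, and the 4 lower became 0 at a size of 2; leaving out 1 zone gave 4 to 6 higher and 3 to 7 lower. In FZ minus PZ the 5 higher members became 12 with equal controls, 9 with the most variable probe set, 1 at a size of 1.4 and 0 at a size of 2, and the 1 lower became 0 with equal controls and 0 at either larger size. In MZ minus HZ the 2 higher became 0 at either larger size. In PZ minus the others the 2 higher became 0 at a size of 2, and the 4 lower became 7 with equal controls, 2 at a size of 1.4 and 0 at a size of 2. With equal controls the MCC minus FCC medians were 0.56 for collagen-binding integrins, 0.83 for RGD and tenascin integrins, 0.32 for laminin-binding integrins, 0.88 for Itgb1, 0.94 for leukocyte and 1.61 for platelet integrins, -4.62 for Itgbl1, 0.48 for laminins, 0.40 for nidogens, perlecan and dystroglycan, 0.41 for syndecans and 1.03 for glypicans, where those of the laminin-binding integrins (-0.12), of nidogens, perlecan and dystroglycan (-0.04) and of syndecans (-0.03) had been under 0 as deposited. With the most variable probe set the medians were 0.73 for RGD and tenascin integrins and 1.02 for glypicans in MCC minus FCC, and 0.070 for RGD and tenascin integrins and -0.36 for Itgb1 in superficial minus deep. The cause of these last moves was not tested. Signal over background was not given by the files.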
